A study of Mus musculus with 8 samples.

Results

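The genes of sterol and fatty acid synthesis were examined as 1 group in a mouse thymic lymphoma line, T29. They were 33 named genes: enzymes of the mevalonate pathway and of the steps from squalene to cholesterol, the SREBP transcription factors and their regulators, enzymes of fatty acid synthesis and desaturation, and 3 sterol transporters. Members were matched by symbol among the array's probe sets annotated with exactly 1 gene, and where a gene had several of these, the brightest on average was used. This measured 32 of the 33 listed genes, out of 18193 genes in all. Acat2 is not analysed here.

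The series used an inducible form of the transcription factor Ikaros, Ik1ER, in the Ikaros-deficient T29 line to look for genes that respond to Ikaros. Cells carried either MigR1, a retroviral vector, or MigR1 with Ik1ER, and each line was given 100 nM 4OHT (4-hydroxytamoxifen) or ethanol, its solvent, for 24 h. The 4 groups were thus MigR1 cells in ethanol, MigR1 cells in 4OHT, Ik1ER cells in ethanol and Ik1ER cells in 4OHT, with 2 Affymetrix arrays each, and all 4 share the Ikaros deficiency of the line. The labels number the arrays of a group 1 and 2 and do not say whether they came from separate cultures, so p-values measure the spread between these arrays, which may be technical. The labels name no clone, and give no second transduction of either line, so a difference between the lines cannot be told apart from a difference between these particular transduced populations.

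Cells make cholesterol from acetyl-CoA through mevalonate, isoprenoids and squalene. SREBP2, encoded by Srebf2, switches on most of these enzymes when sterols in the endoplasmic reticulum run low, while SREBP1, encoded by Srebf1, acts more on fatty acid synthesis. SCAP carries SREBPs to the Golgi for cleavage, INSIG proteins hold SCAP back when sterols are plentiful, and LXR receptors, activated by oxysterols, switch on the efflux pumps encoded by Abca1 and Abcg1. Dividing lymphocytes rely on both routes for new membrane. 4OHT, used here as the inducer, is itself known to bind EBP, the sterol isomerase, and to impede late sterol synthesis, so that the vector line in 4OHT is the control for the drug.

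Values are log2 expression values made with RMA, so that a difference of 1 is a doubling. The array medians ranged from 5.36 to 5.43, and 27 Bacillus control probe sets, a gauge of background, had means of up to 5.27. Of 12 T lineage markers 10 were measured and 9 lay above that level, up to 13.42 for Cd3d, the exception being Cd5 at 4.89. Of the B cell, myeloid, erythroid, stromal, fat cell and liver markers the highest were Pax5 at 5.88, Cd14 at 6.51, Klf1 at 5.72, Dcn at 5.11, Fabp4 at 6.67 and Ttr at 6.19. Some markers differed between groups. Of the 5 myeloid markers, Cd14 and Lyz2 fell with 4OHT in Ik1ER cells and Itgam, itself under the highest control, rose (limma; -1.26, adjusted p = 0.000593; -0.60, adjusted p = 0.0225; 0.54, adjusted p = 0.0208). The log2 of the summed myeloid signal was 8.10 to 8.14 and 8.15 to 8.20 in MigR1 cells in ethanol and 4OHT, 8.15 to 8.23 in Ik1ER cells in ethanol and 7.72 to 7.75 in Ik1ER cells in 4OHT. The summed fat cell markers, of which Adipoq, Cidec and Lep lay under the highest control, ran from 6.70 to 7.11 in MigR1 cells, 7.34 to 7.58 in Ik1ER cells in ethanol and 7.13 to 7.19 in Ik1ER cells in 4OHT, with none called. Of the 10 T lineage markers 3 rose (Cd4, Cd8a and Cd8b1) and 4 fell (Cd3d, Cd3e, Cd3g and Ptcra) with 4OHT in Ik1ER cells. The part of these shifts in the results below was not tested, and in bulk RNA fewer cells of a type and less RNA per cell cannot be told apart. On both Ik1ER arrays numbered 2 the 3' minus 5' difference of the transferrin receptor control probe sets, a gauge of RNA integrity, was higher (1.66 in ethanol and 1.91 in 4OHT) than on the other 6 arrays, where it ran from 1.16 to 1.39.

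The pathway was strongly expressed in all groups. The median level of the 32 members was 10.23, against 6.40 for all genes, 19 members lay at or above 10, and 31 lay above the highest control. The exception was Abca1, the pump that loads cholesterol onto apolipoprotein A-I, with a mean of 4.14. The brightest probe sets were those of Scd2, a stearoyl-CoA desaturase, with a mean of 13.31, Fdps, farnesyl diphosphate synthase, with 12.96, and Hmgcs1, the cytosolic HMG-CoA synthase, with 12.52. Levels of different probe sets depend on their probes as well as on the RNA, so no order between genes is drawn from them.

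**Figure D1:**
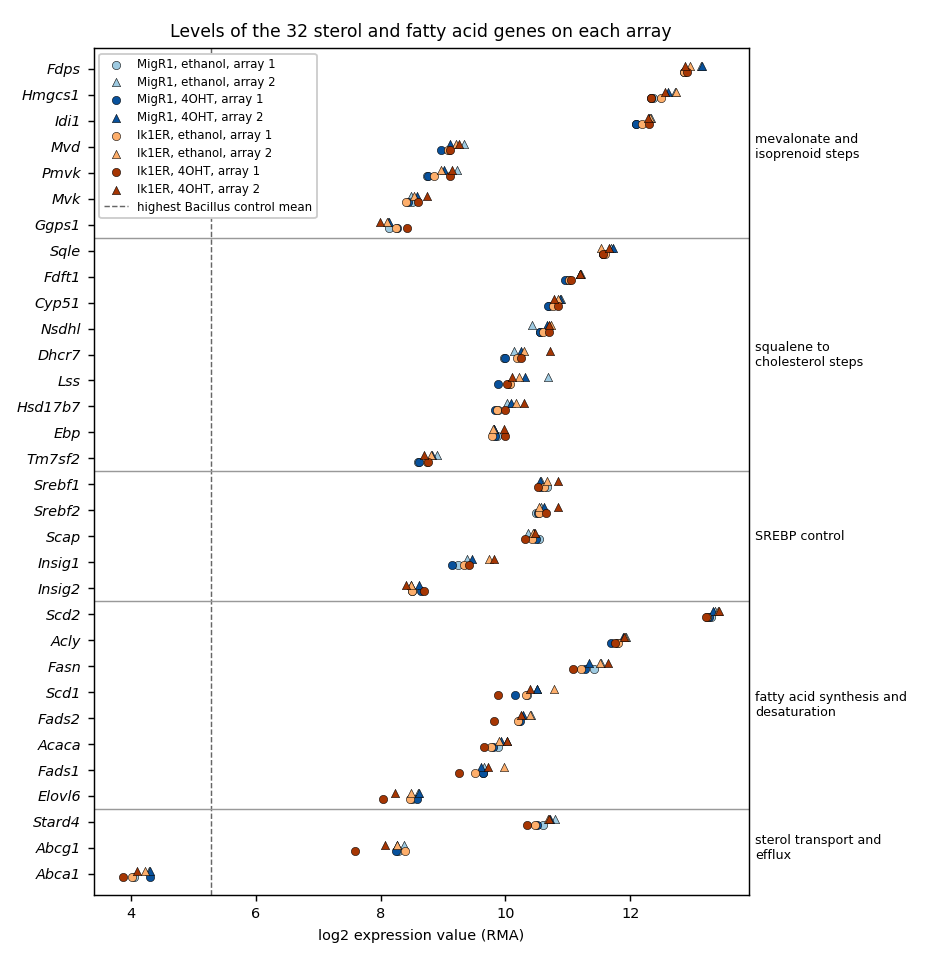
Level of each of the 32 measured members on each array, as log2 expression values, grouped by role, with circles for arrays numbered 1 and triangles for arrays numbered 2. The members other than Abca1 lie above the dashed line at 5.27, the highest Bacillus control mean, and the symbols of a gene lie close together next to the distances between genes.

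4OHT alone had no called effect on the pathway. In MigR1 cells 0 of 32 members passed limma at an adjusted p under 0.05 (0 of 18193 genes did, a background of 0%), and 0 members, against 386 genes or 2.12%, had an unadjusted p under 0.05. The median difference between 4OHT and ethanol was -0.02 over the members and 0.01 over all genes. It lay within 0.2 in 31 of 32 members, and in 95.4% of all genes. The 95% interval of the difference stayed within 1.5-fold in 31 members.

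The member whose interval did not was Lss, lanosterol synthase, which closes the ring system of the sterols. It read 10.06 and 10.69 with MigR1 in ethanol, 9.89 and 10.32 with MigR1 in 4OHT, 10.07 and 10.22 in Ik1ER cells in ethanol, and 10.03 and 10.11 in Ik1ER cells in 4OHT. The MigR1 groups overlapped, and their difference of -0.27 (SE 0.21, n = 2 against 2, limma) had an interval from -0.75 to 0.21. Mvd, which makes isopentenyl diphosphate, read 9.10 and 9.33 in ethanol and 8.96 and 9.12 in 4OHT, a difference of -0.17 (SE 0.11) with overlapping arrays. Insig2, which retains SCAP in the endoplasmic reticulum, read 8.51 and 8.48 in ethanol and 8.65 and 8.62 in 4OHT, and here the arrays did not overlap. Its difference of 0.14 (SE 0.10) had an adjusted p of 1.00 by limma, as had the others. The other Insig2 probe sets, also above the highest control, differed by 0.04 and 0.01 in MigR1 cells, with overlapping arrays. Ebp, the isomerase to which 4OHT binds, read 9.86 and 9.82 in ethanol and 9.84 and 9.81 in 4OHT, a difference of -0.01 with an interval from -0.17 to 0.14. In all, 3 members were higher on both 4OHT arrays than on both ethanol arrays of MigR1 cells (9.38%, where 16.5% of all genes were), namely Insig2, Ggps1 and Abca1, and 3 were lower (9.38%, where 13.2% were), namely Fasn, Fads1 and Abcg1.

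With Ik1ER present, 4OHT again gave no called change in any member. In Ik1ER cells 0 of 32 members passed limma at an adjusted p under 0.05, where 971 genes (5.34%) did, and 4 members, or 12.5%, had an unadjusted p under 0.05, where 17.8% of all genes did. The members spread from -0.50 for Abcg1 to 0.24 for Dhcr7 around a median of 0.00, with 17 above 0 and 15 below, and 24 lay within 0.2, as did 78.1% of all genes. The 95% interval stayed within 1.5-fold in 27 members. The exceptions were Dhcr7, Scd1, Fads1, Fads2 and Abcg1.

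**Figure D2:**
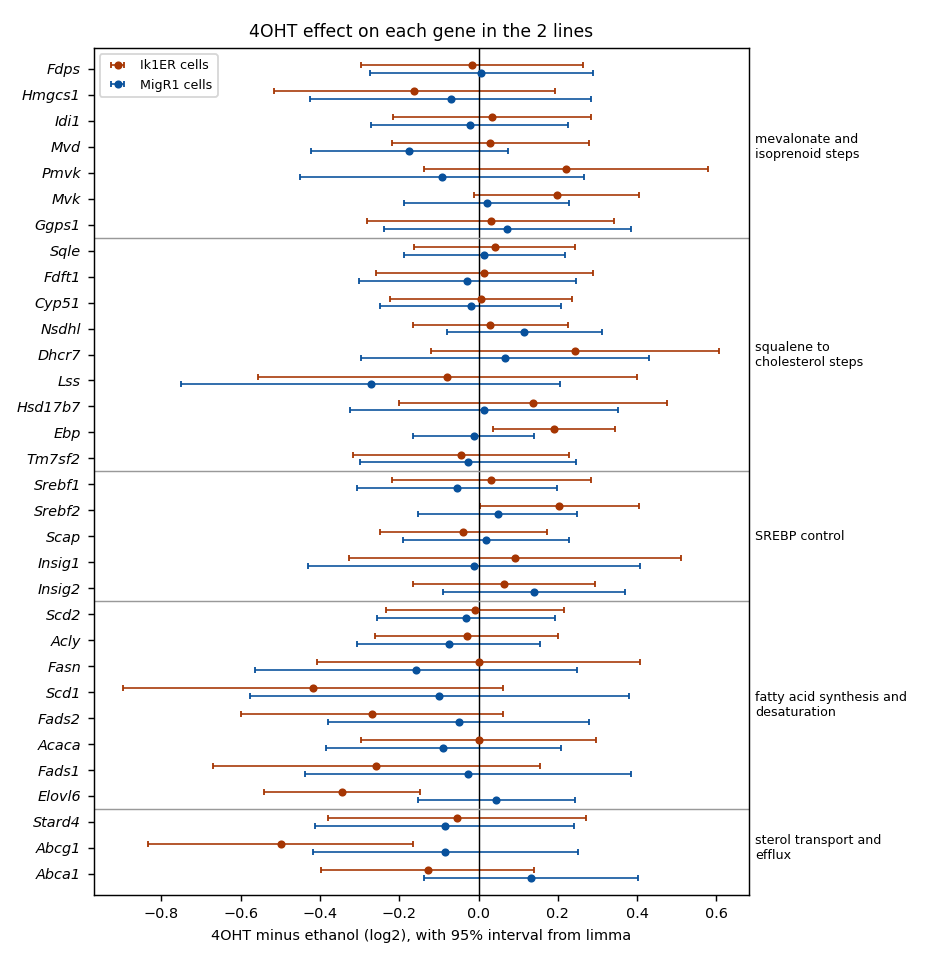
Difference between 4OHT and ethanol for each member in Ik1ER cells and in MigR1 cells, on the log2 scale, with the 95% interval from limma. In MigR1 cells every interval includes 0, and in Ik1ER cells the intervals of Elovl6 and Abcg1 lie below 0 and those of Ebp and Srebf2 above it, without adjustment for the number of genes.

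By the probe set standing for each gene, the enzymes that make cholesterol showed small differences in Ik1ER cells. Of the 7 measured mevalonate and isoprenoid enzymes 5 were above 0 and 2 below (median 0.03), from -0.16 for Hmgcs1 to 0.22 for Pmvk. Of the 9 enzymes from squalene to cholesterol 7 were above 0 and 2 below (median 0.03), and 0 of both sets were called. These signs depend on the probe set. Other probe sets above the highest control were lower for Lss (-0.44, mean level 8.29), Cyp51 (-0.21) and Idi1 (-0.18). Others were higher, as for Hsd17b7 (0.22) and Mvk (0.09). None of these was called by limma over every probe set. Ebp read 9.79 and 9.80 in Ik1ER cells in ethanol and 10.00 and 9.97 in Ik1ER cells in 4OHT. The 4OHT arrays of this line were thus the highest of all 8, and the difference was 0.19 (SE 0.07, limma, interval 0.04 to 0.34, adjusted p = 0.174). The difference of this effect from that in MigR1 cells, 0.20, had an adjusted p of 0.488. Dhcr7, which carries out the last reduction to cholesterol, read 9.98 and 10.14 with MigR1 in ethanol, 9.99 and 10.26 with MigR1 in 4OHT, 10.19 and 10.30 in Ik1ER cells in ethanol, and 10.25 and 10.72 in Ik1ER cells in 4OHT. Its groups overlapped in Ik1ER cells, where the array of 10.72 is 1 of those with the high 3' minus 5' difference, and the part of that in the result was not tested. Mvk and Pmvk, the kinases that phosphorylate mevalonate and its phosphate, were higher on both 4OHT arrays of Ik1ER cells, by 0.20 (SE 0.09) and 0.22 (SE 0.15), and neither was called.

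Among the regulators, Srebf2 read 10.48 and 10.57 with MigR1 in ethanol, 10.53 and 10.62 with MigR1 in 4OHT, 10.54 and 10.53 in Ik1ER cells in ethanol, and 10.64 and 10.84 in Ik1ER cells in 4OHT. Both 4OHT arrays of Ik1ER cells were above the other 6, and the difference from ethanol was 0.20 (SE 0.09, limma, interval 0.00 to 0.40, adjusted p = 0.274). A second Srebf2 probe set read 10.36 and 10.72 in Ik1ER cells in ethanol and 10.48 and 10.90 in 4OHT, so that its groups overlapped. Insig1, a target of SREBPs that closes the feedback loop, read 9.25 and 9.39 with MigR1 in ethanol, 9.14 and 9.47 with MigR1 in 4OHT, 9.33 and 9.73 in Ik1ER cells in ethanol, and 9.42 and 9.82 in Ik1ER cells in 4OHT. Its arrays numbered 1 and 2 differed more than its treatments did. By the probe set standing for each gene, 4 of the 5 regulators were above 0 in Ik1ER cells and 1, Scap, was below (median 0.06). The signs of Insig2 and Scap depend on the probe set. Other probe sets above the highest control were below 0 for Insig2 (-0.13 and -0.06) and above 0 for Scap (0.07).

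Fatty acid enzymes lay mostly below 0. In Ik1ER cells 7 of the 8 were below 0 and 1 above (median -0.14), where 48.8% of all genes were above. Of these, Fasn (-1e-04) and Acaca (6e-04) lay next to 0. In MigR1 cells likewise 7 were below and 1 above (median -0.06), where 53.6% of all genes were above. In either line 0 of 8 were called. Over both lines, 4 arrays against 4, all 8 differences were below 0, where 49.9% of all genes were above. They ran from -0.26 for Scd1 to -0.02 for Scd2 (median -0.11, against -0.00 over all genes), and 0 of 8 were called, where 1.51% of all genes were. The sign of Scd2 depends on the probe set. Its other probe sets, also above the highest control, were above 0 over both lines (0.04 and 0.01). By limma 1 of the 8, Elovl6, had an unadjusted p under 0.05 there, where 12.4% of all genes did.

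Elovl6 was the 1 member called in any of the 6 contrasts. It encodes the enzyme that elongates palmitate towards stearate and is a known SREBP1 target. Its values were 8.51 and 8.60 in MigR1 cells in ethanol, 8.58 and 8.62 in MigR1 cells in 4OHT, 8.46 and 8.49 in Ik1ER cells in ethanol, and 8.03 and 8.23 in Ik1ER cells in 4OHT. The 6 arrays of the other groups lay between 8.46 and 8.62 and both Ik1ER arrays in 4OHT lay below them. Between the lines in 4OHT it was lower in Ik1ER cells by 1.38-fold (log2 -0.47, SE 0.09, interval -0.67 to -0.27, limma, adjusted p = 0.0209), in a contrast where 1 of 32 members and 5.08% of all genes were called. There 5 members were higher on both Ik1ER arrays (15.6%, where 22.2% of all genes were) and 3, Elovl6, Abca1 and Abcg1, were lower (9.38%, where 22.6% were). Against ethanol in Ik1ER cells the difference was -0.34 (SE 0.09, adjusted p = 0.0637). That difference was called in 5 alternatives, with adjusted p from 0.0355 without the Ik1ER 4OHT array 2 to 0.0449 with the replicate number as a block. Against the effect in MigR1 cells, 0.04, it was -0.39 (adjusted p = 0.234). The call between lines is not stable: it was lost without the MigR1 4OHT array 1 (adjusted p = 0.107) or 2 (0.145), without the Ik1ER 4OHT array 1 (-0.37, adjusted p = 0.0627), with only the arrays of the groups compared (0.0852), and with the mean over the gene's probe sets (-0.32, 0.0503). Without both Ik1ER arrays numbered 2 it was -0.57 (adjusted p = 0.0330), a value that takes its spread from the MigR1 arrays alone. Likewise, wherever 1 array is left out, its partner is assumed to vary like the other groups. A second Elovl6 probe set read 7.61 and 7.72, 7.52 and 7.53, 7.38 and 7.38, and 6.90 and 7.27 in the same order of groups. It was again lowest on the Ik1ER arrays in 4OHT. Already in ethanol it was lower in Ik1ER than in MigR1 cells (-0.28). With 4OHT it differed by -0.14 in MigR1 and -0.30 in Ik1ER cells, a difference of effects of -0.16. Its difference between lines in 4OHT, -0.44, was not called by limma over every probe set (adjusted p = 0.146). Another Elovl6 probe set, under the highest control (mean 4.25), also enters the mean over the gene's probe sets.

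Scd1, Fads1 and Fads2, named here after their values were seen, are desaturases, which introduce double bonds into fatty acids. Scd2, also a desaturase, did not go with them: it differed by -0.01 in Ik1ER cells (SE 0.10). Between the arrays of the same number Scd2 differed by -0.03 and 0.01. Scd1 read 10.35 and 10.50 with MigR1 in ethanol, 10.16 and 10.50 with MigR1 in 4OHT, 10.32 and 10.77 in Ik1ER cells in ethanol, and 9.87 and 10.39 in Ik1ER cells in 4OHT. The groups overlapped, and the difference in Ik1ER cells, -0.42 (SE 0.21, limma), had an interval from -0.90 to 0.06, so that neither no change nor a change of 1.86-fold lies outside it. Between the arrays of the same number it was -0.45 for number 1 and -0.38 for number 2. A second Scd1 probe set, also above the highest control, did not overlap in Ik1ER cells. It read 8.54 and 8.75 in ethanol and 8.01 and 8.47 in 4OHT. Its difference of -0.41 was not called by limma over every probe set (adjusted p = 0.407). The Fads1 probe set standing for the gene gave -0.26 on both numbers, and Fads2 gave -0.38 and -0.15. A second Fads1 probe set, also above the highest control, differed by only -0.01 in Ik1ER cells. It read 7.22 and 7.16 in ethanol and 7.04 and 7.32 in 4OHT, so that its groups overlapped. The labels do not say that a shared number marks a shared culture or day. Of the 3 Fads2 probe sets, all lower in Ik1ER than in MigR1 cells in 4OHT, 1 was called by limma over every probe set (-0.44, adjusted p = 0.0417). The one standing for the gene (-0.23, adjusted p = 0.594) and the third (-0.20, adjusted p = 0.653) were not.

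**Figure D3:**
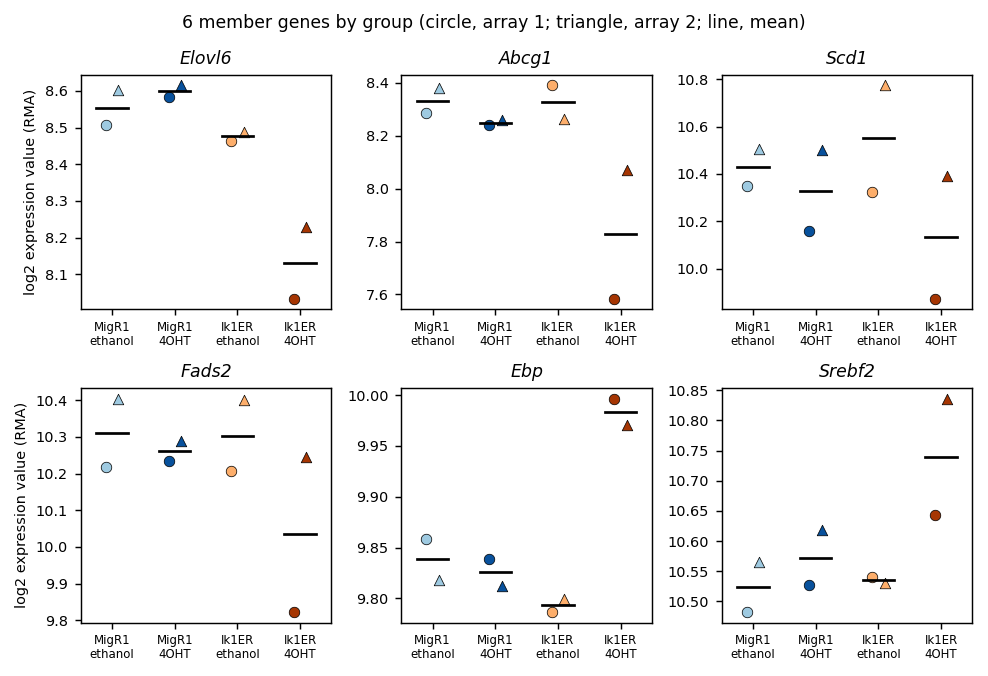
Log2 expression values of 6 members in the 4 groups, with a circle for the array numbered 1, a triangle for the array numbered 2 and a line at the group mean; each panel has its own axis, which does not start at 0. Elovl6 is lowest on the Ik1ER arrays in 4OHT (8.03 and 8.23) and Ebp highest there (10.00 and 9.97), while the groups of Scd1 overlap.

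Of the transporters, Abcg1, which exports cholesterol to high-density lipoprotein, read 8.28 and 8.38 with MigR1 in ethanol, 8.24 and 8.26 with MigR1 in 4OHT, 8.39 and 8.26 in Ik1ER cells in ethanol, and 7.58 and 8.07 in Ik1ER cells in 4OHT. Both Ik1ER arrays in 4OHT lay below the other 6 but 0.49 apart from each other. The difference from ethanol was -0.50 (SE 0.14, limma, adjusted p = 0.104), from MigR1 cells in 4OHT it was -0.42 (adjusted p = 0.170), and the difference of the 4OHT effects between lines was -0.42 (adjusted p = 0.523). A second, dimmer Abcg1 probe set read 5.70 and 5.80 in Ik1ER cells in ethanol and 5.25 and 4.89 in 4OHT, of which the last 2 lie below the highest control. In MigR1 cells it read 5.66 and 5.35 in ethanol and 5.32 and 5.32 in 4OHT, a difference of -0.18. Already in ethanol it was higher in Ik1ER than in MigR1 cells (0.25). Its difference between lines in 4OHT, -0.25, was not called by limma over every probe set (adjusted p = 0.527). Between lines in 4OHT Abcg1 was called with the mean over its probe sets (-0.34, adjusted p = 0.0266), where Elovl6 was not, and without the Ik1ER 4OHT array 2 (-0.67, adjusted p = 0.0156). With the mean over its probe sets Abcg1 was called in Ik1ER cells too (-0.59, adjusted p = 0.00228), and so it was without the Ik1ER 4OHT array 2 (-0.74, adjusted p = 0.00898). Without both Ik1ER arrays numbered 2 it was called at -0.81 (adjusted p = 0.0243), but this sets 1 array against 1, keeps the lower of the 4OHT arrays, and takes its whole spread from the MigR1 arrays. Abca1 read 4.05 and 4.28, 4.30 and 4.29, 4.01 and 4.22, and 3.88 and 4.10 in the same order of groups, and since all 8 values lie under the control level its differences may be those of background. Stard4, a carrier of cholesterol between membranes, differed by -0.05 in Ik1ER cells (SE 0.14).

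Without 4OHT, no member was called between the lines. In ethanol 0 of 32 members and 0 genes (0%) were called between Ik1ER and MigR1 cells by limma, 0 members but 968 genes (5.32%) had an unadjusted p under 0.05, and 30 members lay within 0.2, as did 90.4% of all genes. The 95% interval stayed within 1.5-fold in 29 members. Nsdhl, which helps remove the methyl groups at carbon 4 of lanosterol, was an example of a gap between groups: it read 10.56 and 10.42 in MigR1 cells and 10.61 and 10.73 in Ik1ER cells, a difference of 0.18 (SE 0.08, adjusted p = 0.913). It and Dhcr7 were the 2 members higher on both Ik1ER arrays (6.25%, where 20.7% of all genes were), and Ebp and Elovl6 the 2 lower (6.25%, where 16.8% were). For the difference of the 4OHT effects between lines 0 members were called by limma, where 1.26% of genes were, and 1 had an unadjusted p under 0.05, where 11.2% of genes did. In Ik1ER cells 4 members were higher on both 4OHT arrays than on both ethanol arrays (Mvk, Pmvk, Ebp and Srebf2; 12.5%, where 21% of all genes were) and 2 were lower (Elovl6 and Abcg1; 6.25%, where 21.7% were). With the mean over a gene's probe sets, 9 members were lower (28.1%, where 21.7% of all genes were), among them Hmgcs1, Idi1, Fdft1 and Cyp51, and 1, Abcg1, was called.

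The members were mostly higher on the arrays numbered 2. Of the 32 members 16, or 50%, were higher on the array numbered 2 than on that numbered 1 in all 4 groups, where 7.3% of all genes were, or 9.5% of genes above the median level. The 2 members lower on array 2 in all 4 groups were Insig2 and Ggps1 (6.25%, where 10.7% of genes were). The mean over the 32 members was 10.00 to 10.05 on the 4 arrays numbered 1 and 10.16 to 10.19 on the 4 numbered 2. The median member difference between array 2 and array 1 was 0.15 (all genes -0.01), and by group it was 0.15, 0.16, 0.13 and 0.18 in the order of groups used above. With array number as the term tested, limma called 0 of 32 members (0.0385% of genes), and 15 members had an unadjusted p under 0.05, where 9.32% of genes did. The pattern was first seen in these values and then counted on them. The count was 15 to 17 under the other normalizations, probe set choices and filter tried, of which the filter left out Abca1. These counts stand without the share of all genes in each setting.

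Hmgcs1, named here after its values were seen, shows it in each group. It read 12.37 and 12.71 with MigR1 in ethanol, 12.34 and 12.61 with MigR1 in 4OHT, 12.49 and 12.73 in Ik1ER cells in ethanol, and 12.33 and 12.56 in Ik1ER cells in 4OHT. Array 2 was thus higher by 0.23 to 0.35, a mean of 0.27 (limma, SE 0.05, adjusted p = 0.232), and the difference between treatments in Ik1ER cells was -0.16 (SE 0.15). Lss was higher on array 2 by 0.62 and 0.43 in MigR1 cells and by 0.15 and 0.08 in Ik1ER cells. Insig1 was higher by 0.14 and 0.33 in MigR1 cells and by 0.40 and 0.41 in Ik1ER cells, and Scd1 by 0.37 on average. By role, 7 of 8 fatty acid enzymes (not Fads1), 4 of 9 enzymes from squalene to cholesterol, 3 of 7 mevalonate enzymes, 1 of 5 regulators and 1 of 3 transporters were higher on array 2 in all 4 groups. In MigR1 cells alone 23 of 32 members were higher on array 2 in both groups (24.9% of all genes), and in Ik1ER cells alone 22 were (30.1% of all genes). The transferrin receptor 3' minus 5' difference was 1.36 and 1.39 on arrays 1 and 2 of MigR1 cells in ethanol, 1.37 and 1.20 in MigR1 cells in 4OHT, 1.16 and 1.66 in Ik1ER cells in ethanol, and 1.16 and 1.91 in Ik1ER cells in 4OHT, and its part in the pattern was not tested. The spread between the arrays of a group, which sets the error of the comparisons above, was wider for the members: their median SD within groups was 0.14, against 0.10 over all genes and 0.09 over genes above the median level.

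**Figure D4:**
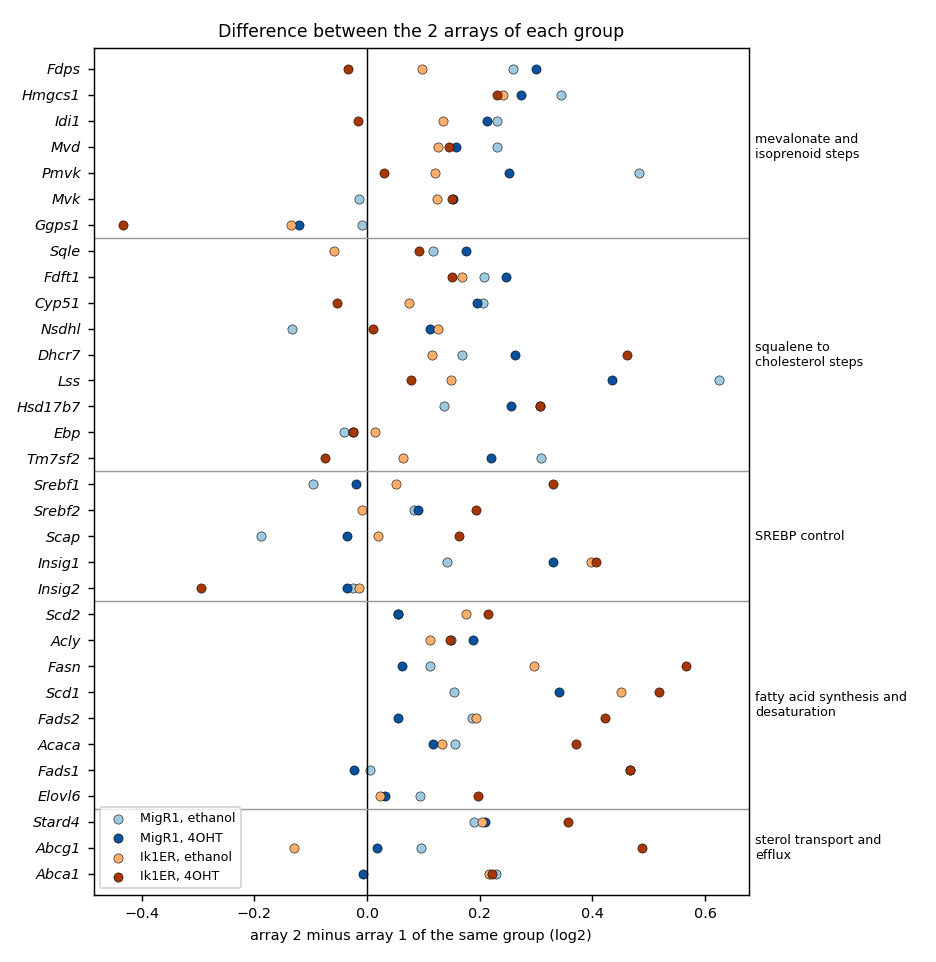
Difference between array 2 and array 1 of the same group for each member, on the log2 scale, with 1 point for each of the 4 groups. Most points lie to the right of 0, and 16 of the 32 members, 7 of them fatty acid enzymes, have all 4 points there.

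Promoters of 4 members are shown as examples. Hmgcs1, Lss and Insig1 are among the 16 members higher on array 2 in all 4 groups, a trait that does not single them out. Elovl6 was the member called between lines. Each is the 250 bases before the gene start on the plus strand, from RefSeq on GRCm38.p6, at chr13:119690101-119690350 for Hmgcs1, chr10:76531355-76531604 for Lss, chr5:28071162-28071411 for Insig1 and chr3:129532136-129532385 for Elovl6. Capitals mark matches on either strand to a sterol regulatory element searched as TCACNCCAC, a CCAAT box, an E-box CACGTG, or the Ikaros core TGGGAA, none of which overlap in these 4.
Hmgcs1: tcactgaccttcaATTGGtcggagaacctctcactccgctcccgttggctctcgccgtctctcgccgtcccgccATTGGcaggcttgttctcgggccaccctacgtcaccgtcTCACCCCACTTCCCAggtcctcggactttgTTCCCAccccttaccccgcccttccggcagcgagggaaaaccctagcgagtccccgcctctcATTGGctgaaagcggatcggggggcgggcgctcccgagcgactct
Lss: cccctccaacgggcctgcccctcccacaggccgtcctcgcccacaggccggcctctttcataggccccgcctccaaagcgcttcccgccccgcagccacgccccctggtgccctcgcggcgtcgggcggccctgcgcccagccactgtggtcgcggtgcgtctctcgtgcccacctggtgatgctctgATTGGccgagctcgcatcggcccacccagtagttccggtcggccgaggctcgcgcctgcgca
Insig1: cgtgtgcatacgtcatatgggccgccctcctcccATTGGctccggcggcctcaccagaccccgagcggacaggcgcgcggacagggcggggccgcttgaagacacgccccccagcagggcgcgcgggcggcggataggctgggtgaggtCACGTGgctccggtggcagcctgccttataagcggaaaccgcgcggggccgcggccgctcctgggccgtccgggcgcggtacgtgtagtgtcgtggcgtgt
Elovl6: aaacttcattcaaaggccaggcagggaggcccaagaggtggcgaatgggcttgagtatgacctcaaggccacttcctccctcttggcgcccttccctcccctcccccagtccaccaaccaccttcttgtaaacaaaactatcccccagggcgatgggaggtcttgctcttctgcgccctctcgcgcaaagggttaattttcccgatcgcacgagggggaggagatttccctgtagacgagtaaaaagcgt
In Hmgcs1 the sterol regulatory element begins at position -137 from the start and runs directly into an Ikaros core at -128, with a second Ikaros core at -107 and CCAAT boxes at -237, -176 and -45. Lss holds a CCAAT box at -62, Insig1 holds a CCAAT box at -216 and an E-box at -101, and Elovl6 holds no match to these letters.

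Promoter windows of 300 bases (250 before and 50 after the start) were found for 25 of the 33 members. Of these members 5 had several windows, and a gene was counted if any of its windows held a match. CCAAT was in those of 19 members (76.0%, Wilson interval 56.6% to 88.5%), against 41.06% of 27025 genes. The 27025 are all genes with a promoter window, measured here or not, and were not matched to the members in level. The sterol regulatory element in this strict spelling was in 1 member, 4.0%, against 1.44% of genes. That member is Hmgcs1, shown above, so it is not typical of the members. The E-box was in 5, or 20%, against 8.09%, and the Ikaros core in 9, or 36.0%, against 28.31%. In members such as Mvk and Nsdhl the reverse of CCAAT and that of TGGGAA share bases. A match describes the letters and is no evidence of a bound site.

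Other genes of sterol and lipid handling were called about as often as genes at large. Of 51 listed, 42 were measured. In Ik1ER cells 2 of 42 (4.76%, where 5.34% of all genes were called) fell and 0 rose with 4OHT. Between the lines in 4OHT 1 was higher and 1 lower (4.76%, where 5.08% were). In MigR1 cells, in ethanol, in the difference of effects and over both lines limma called 0 (0%, 0%, 1.26% and 1.51% of all genes). In these 0, 0, 4 and 6 had an unadjusted p under 0.05 (2.12%, 5.32%, 11.2% and 12.4% of all genes). In Ik1ER cells 10 of 42 had one, and between lines in 4OHT 8 had (17.8% of all genes in each). Mylip, an LXR target whose product marks lipoprotein receptors for destruction, read 8.10 and 7.98 with MigR1 in ethanol, 8.11 and 8.10 with MigR1 in 4OHT, 7.99 and 8.004 in Ik1ER cells in ethanol, and 7.61 and 7.65 in Ik1ER cells in 4OHT. Both Ik1ER arrays in 4OHT lay below all others and close to each other. It fell by 0.37 in Ik1ER cells (SE 0.07, limma, adjusted p = 0.0261) and was lower than in MigR1 cells in 4OHT by -0.48 (adjusted p = 0.0101), while the difference of effects, -0.43, had an adjusted p of 0.106.

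Scarb1, the receptor that takes up cholesterol from high-density lipoprotein, read 9.73 and 9.93 in Ik1ER cells in ethanol and 9.11 and 9.46 in Ik1ER cells in 4OHT, with 9.65 to 9.73 in MigR1 cells. It fell by 0.54 (1.46-fold, SE 0.12, limma, adjusted p = 0.0405), to a level below that on all other arrays. Lipa, the lysosomal acid lipase that frees cholesterol from its esters, read 7.76 and 7.87 in Ik1ER cells in ethanol and 8.002 and 8.30 in Ik1ER cells in 4OHT, with 7.63 to 7.69 in MigR1 cells. In 4OHT it was higher in Ik1ER than in MigR1 cells by 0.49 (SE 0.10, adjusted p = 0.0371). These calls depended on single arrays and settings: over 19 alternatives the highest adjusted p was 0.155 for the fall of Mylip, 0.0789 for Mylip between lines, 0.205 for Scarb1 and 0.187 for Lipa. Npc1, which exports cholesterol from lysosomes, differed over both lines by 0.23 (limma, adjusted p = 0.214). This is a mean of 0.39 in Ik1ER cells (adjusted p = 0.0744) and 0.07 in MigR1 cells. Erlin2, which takes part in the turnover of sterol-regulated proteins, differed by -0.33 in the difference of effects (adjusted p = 0.210). Nr1h3, which encodes LXR alpha, had a mean of 5.19, under the highest control, and its 4OHT differences were -0.22 in MigR1 cells and 0.18 in Ik1ER cells. Between lines it differed by -0.16 in ethanol and 0.24 in 4OHT, and the difference of effects was 0.40 (adjusted p = 0.336), with none called. Of the 42 genes, 14, or 33.3%, were higher on array 2 in all 4 groups, where 7.3% of all genes were, or 9.5% of genes above the median level.

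**Figure D5:**
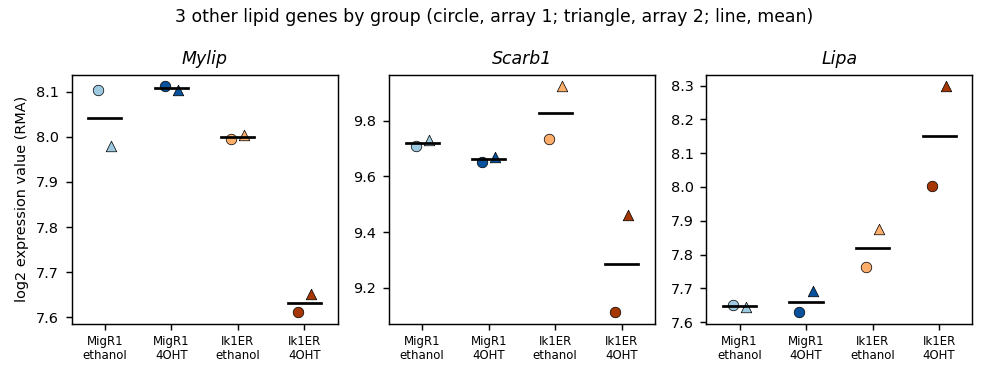
Log2 expression values of Mylip, Scarb1 and Lipa in the 4 groups, with a circle for the array numbered 1, a triangle for the array numbered 2 and a line at the group mean; each panel has its own axis, which does not start at 0. Mylip and Scarb1 are lowest and Lipa highest on the Ik1ER arrays in 4OHT.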

How the data were processed

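Total RNA of 8 samples was labelled and hybridised to Affymetrix arrays, and the deposited log2 values were made by the authors with RMA, per the submitters' processing notes. Version, probe set definitions and build are each not given in the sources used here. This method compresses changes of dim genes and hides a global shift of RNA. Of 45101 probe sets, 34945 have 1 symbol in the platform annotation, 932 several, 9160 none listed and 64 are controls.

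A model of 4 group means over the 8 arrays was fitted with limma 3.58.1 (lmFit, eBayes) in R 4.3.3 (4 residual degrees of freedom, spread pooled over groups, so that SE and intervals assume groups vary alike). The 6 contrasts were adjusted by Benjamini-Hochberg over 18193 genes, and called means an adjusted p under 0.05. The code was tested on simulated data. The number of arrays limits the precision. Members and lists were chosen with earlier results of these data known. Described singly are called members and the 4 of smallest p in each contrast. Mvk, Pmvk, Stard4, Hmgcs1, Scd1, Fads1 and Fads2 were chosen after their values were seen. Motif matching allowed 0 mismatches.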

Additional observations from a re-analysis of the deposited data

How the results depend on the processing

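With 2 arrays a group, 1 array can decide a call. The counts over all genes moved with the setting too, from 389 to 1354 in Ik1ER cells and from 237 to 1344 between lines in 4OHT. The member counts that follow stand without the share of all genes in each setting. They are therefore not read as results about the members. Members called for 4OHT in Ik1ER cells numbered 0. They were 1 with the replicate number as a block, 1 without dim genes, 1 with trend and robust moderation, 1 with quantile normalization repeated, 1 without both second Ik1ER arrays, and 1 with the mean over probe sets. They were Elovl6 in the first 4 settings (adjusted p 0.0361 to 0.0449) and Abcg1 in the last 2. Leaving out 1 array at a time gave 0 to 2, with 2 (Elovl6 and Abcg1) without the Ik1ER 4OHT array 2. Between lines in 4OHT the count of 1 became 2 with every probe set tested, 2 without both second Ik1ER arrays, 0 with only the arrays compared and 0 with an absolute log2 difference of at least 0.5, and leaving out 1 array gave 0 to 2. With the mean over probe sets it was again 1, but Abcg1 in place of Elovl6. Over both lines the count of 0 became 1, Abcg1, with the mean over probe sets, and leaving out 1 array gave 0 to 1. The cause was not tested. In MigR1 cells, between lines in ethanol and in the difference of effects it was 0 in every setting run. None of the called values changed sign.

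Counts over all genes ran from 389 to 1354 (971 reported) in Ik1ER cells, 237 to 1344 (925) between lines in 4OHT, 52 to 444 (230) for the difference, 59 to 518 (275) over both lines, and 0 to 1 in MigR1 cells and between lines in ethanol. In a shorter window before the start, CCAAT was in 68.0% of members and 27.67% of genes. What a shared number marks is not stated, and the numbers were not treated as pairs. The array 2 minus array 1 differences correlated over genes at 0.27 between the MigR1 groups and 0.45 between the Ik1ER groups, and across lines at -0.07 to 0.10. The replicate block assumed the same array-number effect in both lines. A separate effect for each line was not fitted. How far such an effect widened the spread, and so limited the calls, was not tested.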
